A study of Mus musculus with 28 samples.

Results

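Complement is a cascade of plasma and tissue proteins, and the transcripts of 9 of its components were followed here in the neonatal mouse heart after myocardial infarction (MI). The 9 genes, *C1qa*, *C1qb*, *C1qc*, *C1ra*, *C1s1*, *C4b*, *C3*, *Cfb* and *C7*, were taken by their exact gene names from the 45318 genes listed in the count files, and each was found once in all 30 files. All 9 passed the filter on low counts and were tested at both follow-ups. Left anterior descending coronary artery ligation (MI) or a sham operation (SHAM) was carried out on postnatal day 7 or 1 in male Hsd:ICR(CD-1) mice, an outbred stock, and left ventricular tissue remote from the ligated artery was collected after 3 or 21 days. The groups were 7d-MI + 3, 7d-SHAM + 3, 1d-MI + 3 and 1d-SHAM + 3, with 4 libraries each, and 7d-MI + 21, 7d-SHAM + 21, 1d-MI + 21 and 1d-SHAM + 21, with 3 libraries each, every library coming from 1 mouse. The comparisons ask how transcripts changed after MI at an age when the mouse heart has lost much of its capacity to regenerate (day 7) and at an age when it still regenerates (day 1). Animals operated on day 7 were 10 or 28 days old at collection and those operated on day 1 were 4 or 22 days old, so a contrast between the 2 operation ages also holds 6 days of growth. Bulk RNA was sequenced, and fewer cells of a type and less RNA per cell cannot be told apart.

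The classical pathway of complement starts when C1q, a recognition molecule built from A, B and C chains, binds antibodies, dying cells or debris, and its partner proteases C1r and C1s become active. C1s cleaves C4 and C2, which form the C3 convertase. C3, the protein on which all complement routes converge, is cleaved to C3a, a signal for leukocytes, and C3b, a tag for phagocytes. Factor B, the product of *Cfb*, joins C3b in the alternative pathway convertase that amplifies the response. C7 belongs to the terminal proteins C5b to C9 that insert into membranes. Most plasma complement is made in the liver. Macrophages are a well-known local source of C1q, and fibroblasts and other stromal cells can make C1r, C1s, C3, C4 and C7.

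The 16 libraries of 3 days held 33077962 to 51942648 counts and the 12 libraries of 21 days held 40514177 to 168550985, of which rRNA loci took 0.0325% to 0.254% and 0.321% to 62.7%. Library kit and sequencer differed between the follow-ups, so levels at 3 and 21 days were not tested against each other. Levels are given as CPM, counts per 1000000 counts of the scaled library. The 8 cardiomyocyte markers, which define the labelled tissue, summed to 21310 CPM or more in every library. At 3 days their sum moved with MI, at 34217, 31858, 66757 and 31256 CPM in 7d-MI + 3 and 54946 to 60599 CPM in 7d-SHAM + 3, with 5 of 8 called lower, and at 21598 to 30621 CPM in 1d-MI + 3 and 34958 to 38315 CPM in 1d-SHAM + 3, with 1 called lower. Replicate 3 of 7d-MI + 3 stood apart from its group in this sum. The part of muscle content in the complement results below was not tested. Among counts of 1 to 20, the share of even values was 57.5% to 61.3% in 6 libraries of 3 days (all 4 of 1d-MI + 3 and replicates 1 and 2 of 1d-SHAM + 3) and 74.7% to 79.0% in the other 10. The same 6 libraries held more signal over 1045 olfactory receptor genes, which are known from the olfactory epithelium, at a mean of 0.0296 to 0.0909 CPM per kilobase, against 0.0135 to 0.0210 in the other 10. The libraries of these 2 kinds were therefore also compared separately where the groups allowed it. At 21 days each group carried its own name prefix, and at 3 days no prefix was shared between groups. All 4 libraries of 7d-SHAM + 3 had the same prefix. Prefix and group therefore cannot be told apart at either follow-up.

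At 3 days, MI on day 7 raised 6 of the 9 transcripts. *C3*, *C4b* and *Cfb* were 9.75-fold, 15.4-fold and 3.01-fold higher in 7d-MI + 3 than in 7d-SHAM + 3 hearts, and the 3 C1q chains were 1.83-fold to 2.14-fold higher, while *C1ra*, *C1s1* and *C7* did not pass the test. Of all 20345 genes tested, 34% passed in this comparison and 19.8% were called higher. The groups did not overlap for the 6 members, as for 21.7% of all genes in the same direction. For MI on day 1 only *Cfb* passed, at 2.46-fold, where 8.46% of all genes passed and 4.1% were called higher. *C1qc*, *C1qb*, *C3* and *C4b* were 1.84-fold, 1.86-fold, 2.78-fold and 5.95-fold higher without passing. Unadjusted, 5 members had a p under 0.05 in the edgeR test, as had 27.4% of all genes. In this contrast 2 members, *Cfb* and *C3*, had no overlap between 1d-MI + 3 and 1d-SHAM + 3, as 6.52% of all genes had in that direction.

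The members also differed with the age at operation. Between the 2 MI groups, 7 members were higher in 7d-MI + 3 than in 1d-MI + 3, all but *C4b* and *C7*, where 43% of all genes passed and 19.4% were called higher. The 7 did not overlap, as for 18.4% of all genes. Between the sham groups, the C1q chains, *C1ra*, *C1s1* and *Cfb* were higher in 7d-SHAM + 3 than in 1d-SHAM + 3, 6 members where 20.3% of all genes passed and 8.12% were called higher. Of these, 5 did not overlap, all but *Cfb*, where 10.3% of all genes did not overlap in that direction. These comparisons share libraries with those against SHAM. The MI effect on day 7 minus the MI effect on day 1 was tested as an interaction, and passed for 0 of the 9 members in the edgeR quasi-likelihood test (Benjamini-Hochberg adjustment), with 0 at an unadjusted p under 0.05 and 0 by DESeq2 or limma-voom. For the same interaction 13.1% of all genes passed. How many of the called genes were higher moved with the scaling. For MI on day 1 it was 48.4% with the TMM scaling used here, 60.0% with DESeq2's size factors and 78.5% with upper-quartile scaling. For 7d-MI + 3 against 1d-MI + 3 it was 45.2% with TMM and 27.3% with upper-quartile scaling, and for the interaction 68.9%, against 58.1% and 36.8% with the other 2 scalings.

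**Figure D1:**
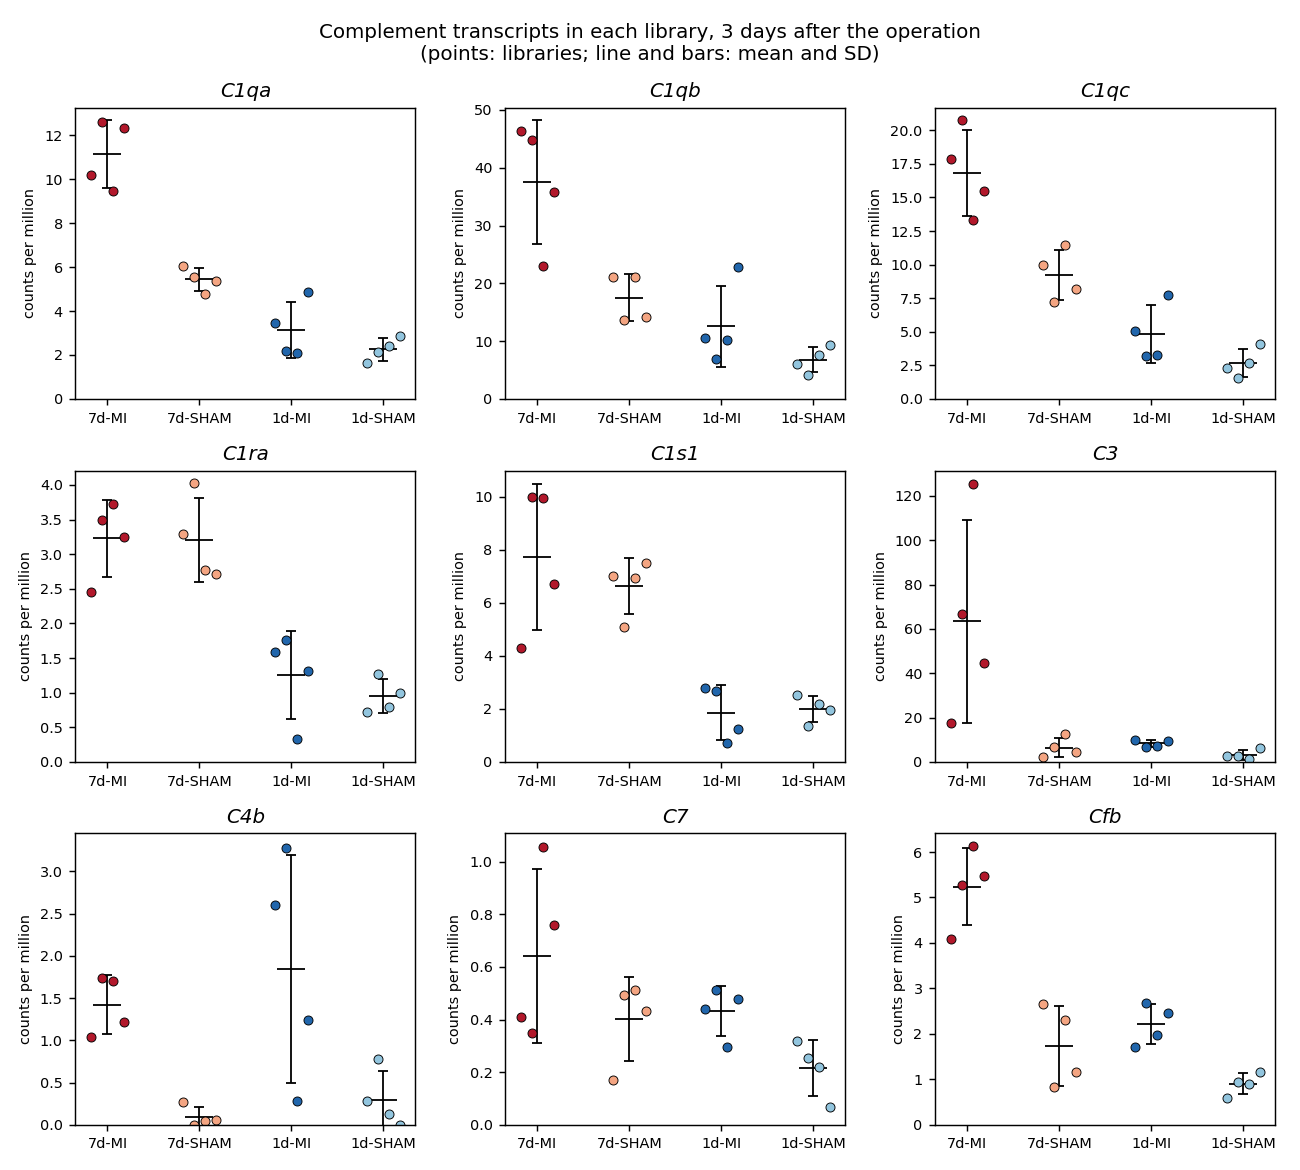
Each panel plots one complement transcript 3 days after the operation, with CPM (counts scaled to library size) on a linear vertical axis, points for the 4 libraries of each group, and the mean with SD as line and bars. All 4 libraries of 7d-MI + 3 lay above all 4 of 7d-SHAM + 3 for *C1qa*, *C1qb*, *C1qc*, *C3*, *C4b* and *Cfb*, and the 2 groups overlapped for *C1ra*, *C1s1* and *C7*.

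The chains of C1q are encoded side by side on mouse chromosome 4 (GRCm38), *C1qb* (ENSMUSG00000036905) at chr4:136880129-136886187, *C1qc* (ENSMUSG00000036896) at chr4:136889804-136893065 and *C1qa* (ENSMUSG00000036887) at chr4:136895917-136898803. Since these neighbours moved together at 3 days, the start regions of *C1qb* and *C1qc* are shown, from 250 bases before to 50 after the RefSeq start site (GRCm38.p6, minus strand, chr4:136886151-136886450 and chr4:136892865-136893164). Capitals mark GAGGAA, the core bound by the myeloid factor PU.1, searched on both strands, or its reverse complement TTCCTC.
C1qb: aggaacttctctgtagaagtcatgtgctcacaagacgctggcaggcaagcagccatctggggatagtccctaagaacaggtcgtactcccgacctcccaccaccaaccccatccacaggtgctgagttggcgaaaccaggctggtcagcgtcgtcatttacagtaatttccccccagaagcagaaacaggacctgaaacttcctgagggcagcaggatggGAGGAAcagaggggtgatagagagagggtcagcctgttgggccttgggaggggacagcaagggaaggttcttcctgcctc
C1qc: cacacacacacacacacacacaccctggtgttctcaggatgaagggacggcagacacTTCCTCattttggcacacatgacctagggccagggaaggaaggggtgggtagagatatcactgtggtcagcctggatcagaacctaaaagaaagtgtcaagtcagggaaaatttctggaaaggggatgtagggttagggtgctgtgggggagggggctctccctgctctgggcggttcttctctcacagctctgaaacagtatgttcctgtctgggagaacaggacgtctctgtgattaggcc
The match began 30 bases before the start in *C1qb*, at position -30 on the printed strand, and at -193 in *C1qc* on the other strand. The same 6 letters also lay in *C1ra*, at 45 on the other strand, so that 3 of the 6 members found in the table had them. They occur in 28.3% of the 32851 promoters of this table. This motif and the other 3 named below (C/EBP, GAS and the TATA box) were chosen with the sequences in view, and a match is a description only. A motif for NF-κB, searched in the same way and held by 0.411% of promoters, had no match in the windows of the 6 members found in the table.

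*C1qa*, the A chain, had 10.2, 12.6, 9.44 and 12.3 CPM in 7d-MI + 3 hearts and 6.05, 5.54, 4.79 and 5.37 CPM in 7d-SHAM + 3 hearts. It had 3.44, 2.19, 2.08 and 4.84 CPM in 1d-MI + 3 and 1.63, 2.11, 2.39 and 2.86 CPM in 1d-SHAM + 3. The 7d-MI + 3 libraries stood above all others. The 7d-SHAM + 3 libraries were above those of 1d-SHAM + 3, their lowest lay just under the highest of 1d-MI + 3, and the day 1 groups overlapped. The fitted log2 fold change was 1.04 (SE 0.23, adjusted p = 0.00159, edgeR quasi-likelihood test) for MI on day 7 and 0.49 (SE 0.24, adjusted p = 0.19) for MI on day 1. *C1qa* was also higher in 7d-MI + 3 than in 1d-MI + 3 (log2 fold change 1.82, SE 0.24, adjusted p = 1.02e-05), and in 7d-SHAM + 3 than in 1d-SHAM + 3 (1.28, SE 0.24, adjusted p = 0.00104).

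The B chain, *C1qb*, was the most abundant member per length at 3 days, with a mean of 34.4 CPM per kilobase in 7d-MI + 3. Its level was 46.4, 44.7, 23.0 and 35.9 CPM in 7d-MI + 3 hearts, 21.1, 13.7, 21.1 and 14.2 CPM in 7d-SHAM + 3 hearts, 10.6, 6.83, 10.2 and 22.8 CPM in 1d-MI + 3 and 6.07, 4.19, 7.62 and 9.32 CPM in 1d-SHAM + 3. Replicate 4 of 1d-MI + 3 stood above the rest of its group for all 3 chains, and for *C1qb* it nearly reached replicate 3 of 7d-MI + 3. The log2 fold change was 1.10 (SE 0.33, adjusted p = 0.0174) for MI on day 7 and 0.90 (SE 0.34, adjusted p = 0.105) for MI on day 1, a difference of 0.20 that did not pass. *C1qc*, the C chain, had 17.8, 20.7, 13.3 and 15.5 CPM in 7d-MI + 3 and 9.96, 7.24, 11.4 and 8.20 CPM in 7d-SHAM + 3, against 5.07, 3.19, 3.24 and 7.76 CPM in 1d-MI + 3 and 2.31, 1.56, 2.66 and 4.06 CPM in 1d-SHAM + 3. MI on day 7 raised it by 0.87 on the log2 scale (SE 0.28, adjusted p = 0.0195) and the value for MI on day 1 was as large, at 0.88 (SE 0.29), with an adjusted p of 0.0616 (0.0338 without replicate 4 of 1d-SHAM + 3 and 0.0271 without replicate 3 of 1d-MI + 3). The day 7 calls of *C1qb* and *C1qc* lost significance when single libraries were left out, at adjusted p of 0.0518 to 0.0589 without replicate 2 or 4 of 7d-SHAM + 3 or replicate 1 or 2 of 7d-MI + 3 for *C1qb*, and of 0.0551 to 0.0653 without replicate 2 or 4 of 7d-SHAM + 3 or replicate 2 of 7d-MI + 3 for *C1qc*.

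Against 1d-SHAM + 3 replicates 1 and 2 alone, whose share of even counts was like that of 1d-MI + 3, *C1qc* passed (log2 fold change 1.29, adjusted p = 0.0465) and *C1qb* (1.28, adjusted p = 0.186) and *C1qa* (0.73, adjusted p = 0.16) did not. For the sham contrast, with replicates 3 and 4 of 1d-SHAM + 3 alone, which were like 7d-SHAM + 3 in this respect, *C1qa* (1.05), *C1qc* (1.47), *C1ra* (1.84) and *C1s1* (1.67) stayed past the threshold, while *C1qb* (1.05, adjusted p = 0.246) and *Cfb* (0.75, adjusted p = 0.291) did not. The 2 MI groups at 3 days had no library of the same kind, so that age and this library difference cannot be told apart there.

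The C1q transcripts were set beside 12 macrophage markers (*Adgre1*, *Csf1r*, *Cd68* and others), since macrophages are a main source of C1q. All 12 were detected in each group. Their summed level was 359 to 629 CPM in 7d-MI + 3 hearts, 105 to 151 CPM in 7d-SHAM + 3 hearts, 85.6 to 226 CPM in 1d-MI + 3 and 48.7 to 68.5 CPM in 1d-SHAM + 3. Of the 12, 9 rose after MI on day 7 and 6 after MI on day 1, and none fell. The summed C1q level was 45.7 to 78.0 CPM in 7d-MI + 3 hearts, 26.5 to 37.3 CPM in 7d-SHAM + 3 hearts, 12.2 to 35.4 CPM in 1d-MI + 3 and 7.86 to 16.2 CPM in 1d-SHAM + 3. Relative to the markers it was 11.8% to 15.2% in 7d-MI + 3 and 24.5% to 30.3% in 7d-SHAM + 3, so that the C1q sum was a smaller share of the macrophage sum in every 7d-MI + 3 library than in any 7d-SHAM + 3 library. In the day 1 groups the shares overlapped, at 11.1% to 18.1% in 1d-MI + 3 and 15.9% to 25.9% in 1d-SHAM + 3. A list of 6 neutrophil markers also moved with MI, at 31.0 to 64.5 CPM in 7d-MI + 3 and 2.23 to 4.49 CPM in 7d-SHAM + 3, and at 19.0 to 24.0 CPM in 1d-MI + 3 and 3.21 to 6.89 CPM in 1d-SHAM + 3. The part of cell number in the C1q result was not tested.

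**Figure D2:**
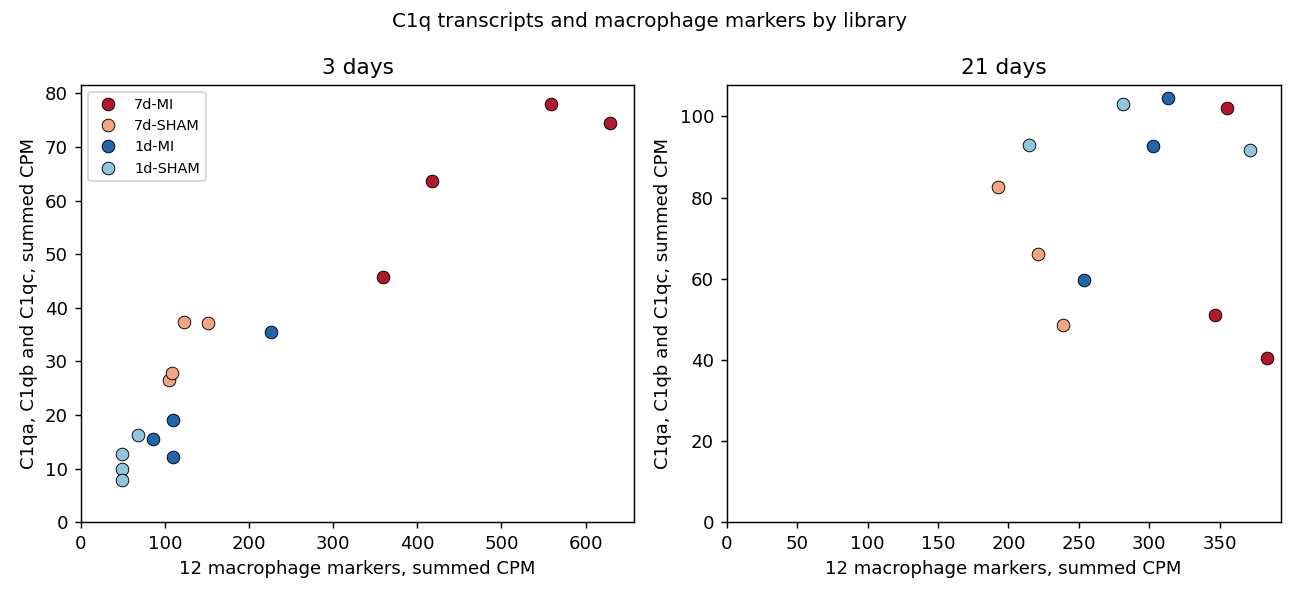
The summed CPM of *C1qa*, *C1qb* and *C1qc* (vertical axis) is plotted against the summed CPM of the 12 macrophage markers (horizontal axis), with 1 point per library, 3 days on the left and 21 days on the right. At 3 days the 7d-MI libraries lie at the top right (45.7 to 78.0 CPM of C1q), and at 21 days 7d-MI overlaps with every other group on the vertical axis.

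At 21 days no C1q chain was higher after MI at either age by the adjusted test. *C1qa* had 15.97, 45.7 and 20.4 CPM in 7d-MI + 21 and 21.1, 61.4 and 36.7 CPM in 7d-SHAM + 21, against 26.0, 42.5 and 50.1 CPM in 1d-MI + 21 and 53.7, 28.1 and 57.7 CPM in 1d-SHAM + 21. *C1qb* had 10.8, 23.7 and 16.02 CPM in 7d-MI + 21 hearts, 13.1, 7.40 and 8.35 CPM in 7d-SHAM + 21 hearts, 15.5, 23.0 and 23.4 CPM in 1d-MI + 21 and 18.9, 19.7 and 11.9 CPM in 1d-SHAM + 21. *C1qc* averaged 20.4 ± 10.7 CPM in 7d-MI + 21 hearts, 16.5 ± 4.08 CPM in 7d-SHAM + 21 hearts, 25.5 ± 6.59 CPM in 1d-MI + 21 and 32.6 ± 11.6 CPM in 1d-SHAM + 21 (SD, n = 3 each). MI and SHAM groups overlapped at both ages for each chain, and *C1qa* spanned 21.1 to 61.4 CPM within 7d-SHAM + 21 alone. The log2 fold changes for MI on day 7 were -0.54 (SE 0.47, adjusted p = 0.542) for *C1qa*, 0.80 (SE 0.36, adjusted p = 0.289) for *C1qb* and 0.31 (SE 0.39, adjusted p = 0.686) for *C1qc*. The chains no longer went together at this follow-up. Over the 12 libraries Pearson's r of log2 CPM was 0.07 for *C1qa* with *C1qb*, 0.43 for *C1qa* with *C1qc* and 0.70 for *C1qb* with *C1qc*, whereas over the 16 libraries of 3 days the 3 values were 0.93 to 0.97. Both sets of r include the group differences, and the points of each share a kit and a depth range. Per length, *C1qa* made up 39.4% to 80.8% of the 3 chains at 21 days and 15.4% to 30.4% at 3 days, and *C1qb* made up 9.31% to 35.1% at 21 days and 56.9% to 71.7% at 3 days. Time after the operation and library kit cannot be told apart in these shares.

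C1r and C1s, the proteases carried by C1q, are encoded near each other on chromosome 6, *C1ra* (ENSMUSG00000055172) at chr6:124512405-124523443 and *C1s1* (ENSMUSG00000038521) at chr6:124530345-124542359. At 3 days both differed with the age at operation, and no contrast of MI with SHAM passed. *C1s1* had 4.29, 9.998, 9.95 and 6.72 CPM in 7d-MI + 3 and 7.00, 5.08, 6.94 and 7.52 CPM in 7d-SHAM + 3, against 2.81, 2.66, 0.695 and 1.25 CPM in 1d-MI + 3 and 2.51, 1.35, 2.19 and 1.96 CPM in 1d-SHAM + 3. Every day 7 library was above every day 1 library, and MI and SHAM overlapped at both ages. The log2 fold change was 2.07 (SE 0.36, adjusted p = 0.000206) for 7d-MI + 3 against 1d-MI + 3 and 1.72 (SE 0.36, adjusted p = 0.00248) for 7d-SHAM + 3 against 1d-SHAM + 3, but 0.22 (SE 0.34, adjusted p = 0.672) for MI on day 7 and -0.12 (SE 0.36, adjusted p = 0.846) for MI on day 1.

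*C1ra* averaged 3.23 ± 0.555 CPM in 7d-MI + 3 hearts, 3.20 ± 0.609 CPM in 7d-SHAM + 3 hearts, 1.25 ± 0.637 CPM in 1d-MI + 3 and 0.945 ± 0.246 CPM in 1d-SHAM + 3 (SD, n = 4 each). Its log2 fold change was 1.37 (SE 0.35, adjusted p = 0.00388) between the MI groups and 1.76 (SE 0.36, adjusted p = 0.00192) between the sham groups. For MI on day 7 it was 0.02 (SE 0.34, adjusted p = 1) with TMM and -0.08 with upper-quartile scaling, so that no direction can be given. Replicate 3 of 1d-MI + 3 was the lowest library for both proteases, at 0.337 CPM of *C1ra* and 0.695 CPM of *C1s1*. The ratio of *C1s1* to *C1ra* per length averaged 2.05 in 7d-MI + 3 hearts, 1.90 in 7d-SHAM + 3 hearts, 1.38 in 1d-MI + 3, against 2.04 in 1d-SHAM + 3. Over the 16 libraries r between the 2 transcripts was 0.89. Each protease has a close copy in the mouse, *C1rb* and *C1s2*, between which reads may have been split. *C1rb* counts came to 4% to 6.06% of the *C1ra* counts in 7d-MI + 3 hearts, 0% to 12.4% in 7d-SHAM + 3 hearts, 32.4% to 141% in 1d-MI + 3 and 6.67% to 27.8% in 1d-SHAM + 3, and *C1s2* counts to at most 5.51% of *C1s1* in the day 7 groups and at most 43.7% in the day 1 groups.

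By 21 days the pattern of the proteases was another one, with *C1ra* and *C1s1* highest in every 7d-MI + 21 library. *C1ra* had 11.5, 8.89 and 13.4 CPM in 7d-MI + 21 hearts, 5.09, 2.44 and 2.89 CPM in 7d-SHAM + 21 hearts, 4.56, 7.68 and 5.07 CPM in 1d-MI + 21 and 5.08, 4.48 and 2.59 CPM in 1d-SHAM + 21. *C1s1* had 28.4, 19.9 and 20.7 CPM in 7d-MI + 21 and 9.76, 7.95 and 11.5 CPM in 7d-SHAM + 21, against 8.50, 8.07 and 9.98 CPM in 1d-MI + 21 and 12.3, 6.73 and 15.1 CPM in 1d-SHAM + 21. In neither gene did 7d-MI + 21 overlap with any other group. The log2 fold changes against 7d-SHAM + 21, 1.69 for *C1ra* (SE 0.38, adjusted p = 0.134) and 1.24 for *C1s1* (SE 0.33, adjusted p = 0.18), did not pass over all genes. The copy *C1rb* came to 13.9% to 25.8% of *C1ra* in 7d-MI + 21 and 25.3% to 63.1% in 7d-SHAM + 21.

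*C4b* (ENSMUSG00000073418, chr17:34728380-34743882) encodes C4, which C1s cleaves. At 3 days it was read at very low counts, 56, 90, 87 and 56 in the 7d-MI + 3 libraries and 8, 0, 2 and 2 in 7d-SHAM + 3, against 124, 147, 14 and 70 in 1d-MI + 3 and 14, 37, 6 and 0 in 1d-SHAM + 3. In CPM it was 1.04, 1.74, 1.70 and 1.21 in 7d-MI + 3 hearts, 0.272, 0, 0.0512 and 0.0543 in 7d-SHAM + 3 hearts, 2.60, 3.28, 0.278 and 1.24 in 1d-MI + 3 and 0.279, 0.782, 0.133 and 0 in 1d-SHAM + 3. A count of 0 allows up to 3 counts, 0.0929 CPM in replicate 2 of 7d-SHAM + 3 and 0.0999 CPM in replicate 4 of 1d-SHAM + 3, by counting error alone. The day 7 groups did not overlap, and replicate 3 of 1d-MI + 3 fell within the range of 1d-SHAM + 3. The log2 fold change was 3.94 (SE 0.96, adjusted p = 0.00355) for MI on day 7 and 2.57 (SE 0.83, adjusted p = 0.059) for MI on day 1. Leaving out replicate 3 of 1d-MI + 3 or replicate 2 of 1d-SHAM + 3 brought *C4b* past the threshold for MI on day 1, at adjusted p = 0.0179 and 0.0159.

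The nearby gene *C4a* is a near-identical copy of *C4b*, and how reads shared by both were counted is not given in the sources used here. *C4a* had counts of 0, 18, 1 and 0 in 7d-MI + 3, none in any 7d-SHAM + 3 library, 117, 143, 25 and 82 in 1d-MI + 3 and 24, 46, 6 and 14 in 1d-SHAM + 3. As a share of the *C4b* counts this was 0% to 20% in 7d-MI + 3 and 94.4% to 179% in 1d-MI + 3, so that the 2 ages differed in which copy was counted. *C4a* fell by 4.31 on the log2 scale in 7d-MI + 3 against 1d-MI + 3 (adjusted p = 0.00465), while *C4b* differed by -0.37 (SE 0.76, adjusted p = 0.72), a direction that changed with other tests. *C4a* was counted in all 8 day 1 libraries, which are the 6 with fewer even counts and more olfactory receptor signal and also replicates 3 and 4 of 1d-SHAM + 3, which had neither. *C4b* per kilobase was 11.9 to 21.9 times the mean olfactory receptor level in 7d-MI + 3 and 0 to 2.64 times in 7d-SHAM + 3, against 1.65 to 7.01 times in 1d-MI + 3 and 0 to 2.84 times in 1d-SHAM + 3. With that level subtracted from every gene, the *C4b* value for MI on day 7 was 5.00 (adjusted p = 0.00612) and that for MI on day 1 was 3.47 (adjusted p = 0.0582). When name prefixes entered the fit as a random effect, the day 7 call was lost (adjusted p = 0.1).

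**Figure D3:**
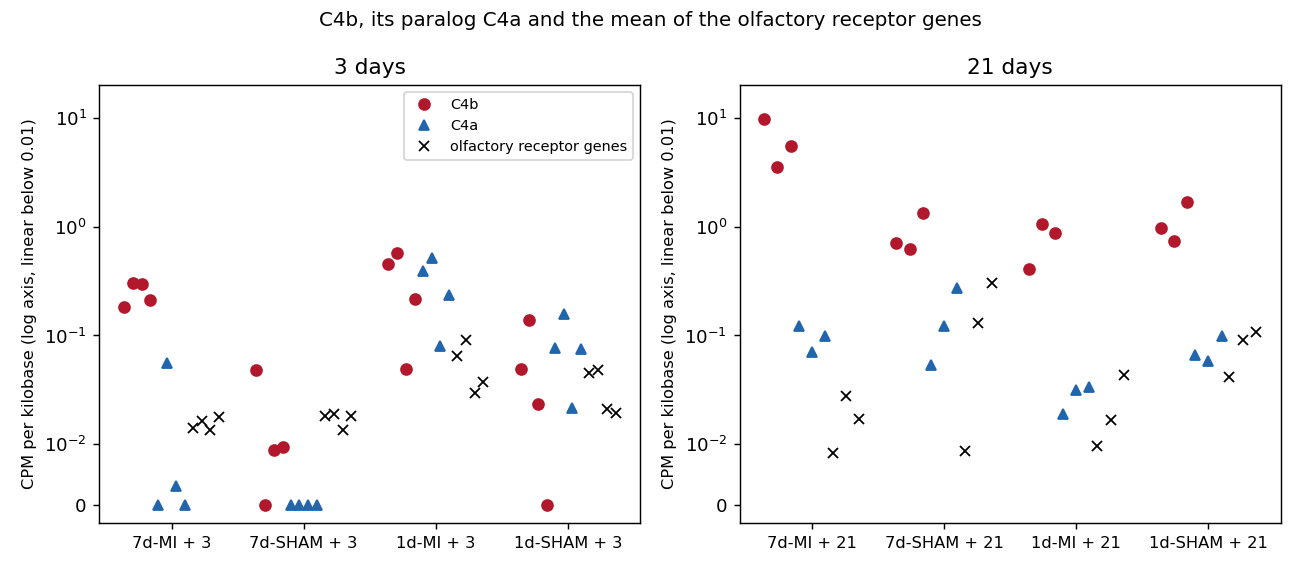
CPM per kilobase of *C4b* (circles), its copy *C4a* (triangles) and the mean of 1045 olfactory receptor genes (crosses) are drawn for every library, on a log axis that is linear below 0.01. At 3 days *C4a* is at or near 0 in the day 7 groups and close to *C4b* in the day 1 groups, and at 21 days *C4b* lies above *C4a* in all 12 libraries.

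At 21 days *C4b* was higher in the 7d-MI + 21 libraries than in any other. It had 55.6, 19.9 and 31.0 CPM in 7d-MI + 21 and 4.05, 3.56 and 7.59 CPM in 7d-SHAM + 21, against 2.33, 6.04 and 4.96 CPM in 1d-MI + 21 and 5.58, 4.23 and 9.50 CPM in 1d-SHAM + 21. The copy counted was then *C4b*, with *C4a* at 1.36% to 2.19% of it in 7d-MI + 21 hearts, 8.16% to 22.2% in 7d-SHAM + 21 hearts, 3.25% to 5.06% in 1d-MI + 21 and 6.44% to 8.57% in 1d-SHAM + 21. The log2 fold change was 2.82 (SE 0.50, adjusted p = 0.0792) against 7d-SHAM + 21 and 3.00 (SE 0.50, adjusted p = 0.0509) against 1d-MI + 21, neither past the threshold. For the contrast of the MI groups *C4b* passed under 7 other settings, among them DESeq2 and limma-voom (adjusted p = 0.0194), and without replicate 2 of 7d-MI + 21 (adjusted p = 0.0183).

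*C3* (ENSMUSG00000024164, chr17:57203970-57228136), the centre of the cascade, and *Cfb* (ENSMUSG00000090231, chr17:34856374-34862518), which amplifies its cleavage, make up the alternative pathway convertase. The start region of *C3* is shown because its level spread most widely at 21 days (GRCm38.p6, minus strand, chr17:57228087-57228386), with capitals for a C/EBP match (TTGCNNAA, searched on both strands, in 10.8% of promoters) and a TATA box (TATAAA, in 13.6%).
C3: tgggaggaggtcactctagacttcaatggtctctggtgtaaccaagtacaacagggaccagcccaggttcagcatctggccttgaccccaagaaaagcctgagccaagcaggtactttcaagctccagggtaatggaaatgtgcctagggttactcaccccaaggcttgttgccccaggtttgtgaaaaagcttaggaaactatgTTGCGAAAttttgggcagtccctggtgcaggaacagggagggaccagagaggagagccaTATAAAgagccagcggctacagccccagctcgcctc
The C/EBP letters lay at -45 and the TATA letters at 15, both on the printed strand. C/EBP matches also lay in *C1ra* (17) and *C1s1* (-242), both on the other strand.

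*C3* had 17.6, 66.6, 125 and 44.5 CPM in 7d-MI + 3 and 2.38, 6.69, 12.4 and 4.397 CPM in 7d-SHAM + 3. It had 9.93, 6.86, 7.36 and 9.39 CPM in 1d-MI + 3 and 2.67, 2.47, 1.11 and 6.06 CPM in 1d-SHAM + 3. MI and SHAM did not overlap at either age, and the 4 libraries of 7d-MI + 3 spread far more widely than those of 1d-MI + 3 (SD 45.8 and 1.501 CPM). The log2 fold change was 3.29 (SE 0.66, adjusted p = 0.00174) for MI on day 7, 1.48 (SE 0.64, adjusted p = 0.159) for MI on day 1 and 2.92 (SE 0.64, adjusted p = 0.00321) for 7d-MI + 3 against 1d-MI + 3. The day 7 effect minus the day 1 effect was 1.81 (SE 0.88, adjusted p = 0.208) and did not pass. In the sham groups *C3* differed by 1.11 (SE 0.65, adjusted p = 0.236).

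*Cfb* was the one member that passed after MI at both ages. It had 4.08, 5.28, 6.13 and 5.47 CPM in 7d-MI + 3 and 2.65, 0.836, 2.30 and 1.17 CPM in 7d-SHAM + 3, and 1.72, 2.68, 1.98 and 2.46 CPM in 1d-MI + 3 and 0.597, 0.951, 0.908 and 1.17 CPM in 1d-SHAM + 3. All MI libraries of an age were above all SHAM libraries of that age. The log2 fold change was 1.59 (SE 0.31, adjusted p = 0.000417) on day 7 and 1.30 (SE 0.32, adjusted p = 0.0177) on day 1, and the 2 effects differed by 0.29. The day 1 call was lost without replicate 2 of 1d-MI + 3 (adjusted p = 0.0601), with name prefixes as a random effect (0.0922), with the 2 groups fitted alone (0.0815) and with libraries 3 and 4 of 1d-MI + 3 alone (0.113), and held against replicates 1 and 2 of 1d-SHAM + 3 alone (1.501, adjusted p = 0.043). Between the sham groups the value was 0.95 (SE 0.32, adjusted p = 0.0415), a call that was lost without replicate 1, 2 or 3 of 1d-SHAM + 3 or replicate 1 or 3 of 7d-SHAM + 3, at an adjusted p of up to 0.155.

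Hepatocyte transcripts, which would mark liver RNA, were low but uneven at 3 days, at 0.371 to 36.7 CPM over 6 markers in 7d-MI + 3 hearts, 0.717 to 8.11 CPM in 7d-SHAM + 3 hearts, 0.919 to 35.9 CPM in 1d-MI + 3 and 0.443 to 3.51 CPM in 1d-SHAM + 3. The defining marker *Alb* had 0.186, 25.1, 0 and 0 CPM in 7d-MI + 3. The library of this group highest in *C3*, replicate 3, had the highest cardiomyocyte, fibroblast and neutrophil sums and the lowest macrophage sum of the group. The part of liver RNA or of cell makeup in the *C3* level was not tested. The 10 fibroblast markers summed to 4353 to 5169 CPM in 7d-MI + 3 and 2921 to 3249 CPM in 7d-SHAM + 3, and to 1251 to 2108 CPM in 1d-MI + 3 and 1651 to 1957 CPM in 1d-SHAM + 3. Per length and relative to *Pdgfra*, the receptor by which fibroblasts are recognised, *C3* was 0.253 to 1.83 in 7d-MI + 3 and 0.0439 to 0.256 in 7d-SHAM + 3, and 0.309 to 0.397 in 1d-MI + 3 and 0.0448 to 0.182 in 1d-SHAM + 3. The ratio to *Pdgfra* thus overlapped slightly on day 7 and not on day 1.

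At 21 days *C3* was highest in 7d-MI + 21 and lowest in 1d-MI + 21. It had 209.6, 85.1 and 134 CPM in 7d-MI + 21 and 16.01, 15.03 and 33.1 CPM in 7d-SHAM + 21, against 6.84, 18.5 and 17.6 CPM in 1d-MI + 21 and 35.1, 29.6 and 49.4 CPM in 1d-SHAM + 21. The MI groups lay on opposite sides of their shams with no overlap at either age. Against 7d-SHAM + 21 the log2 fold change was 2.74 (SE 0.48, adjusted p = 0.0792), and 1d-MI + 21 differed from 1d-SHAM + 21 by -1.41 (SE 0.46, adjusted p = 0.285). The difference between the 2 effects was 4.16 (SE 0.66, adjusted p = 0.101). *Cfb* had 6.36, 3.28 and 4.66 CPM in 7d-MI + 21 and 1.97, 1.33 and 2.35 CPM in 7d-SHAM + 21, and 1.66, 1.96 and 2.04 CPM in 1d-MI + 21 and 2.16, 2.34 and 2.86 CPM in 1d-SHAM + 21. Its MI libraries also did not overlap with their shams, at lower levels. The log2 fold change was 1.35 (SE 0.35, adjusted p = 0.173) on day 7. On day 1 it was -0.38 (SE 0.35, adjusted p = 0.588), close to its SE, so no day 1 direction can be given.

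In all, 0 of the 9 members passed for MI on day 7 at 21 days in the quasi-likelihood test of edgeR (p adjusted by Benjamini-Hochberg), where 0% of the 24646 genes did. Unadjusted, 7 members had a p under 0.05, as had 16.7% of all genes, and DESeq2 called 6 members among 1028 genes and limma-voom 2 among 14. There were 6 members, *C1ra*, *C1s1*, *C3*, *C4b*, *C7* and *Cfb*, with all 7d-MI + 21 libraries above all 7d-SHAM + 21 libraries, as for 5.83% of all genes. Without replicate 1 of 7d-SHAM + 21, edgeR called 7 members (adjusted p = 0.00397 for *C3* and *C4b*), while the number of all genes called went to 5903, or 24%. *C3* passed without replicate 3 of 7d-SHAM + 21 (adjusted p = 0.0456, 11 genes in all), and *C3* and *C4b* without replicate 2 of 7d-MI + 21 (adjusted p = 0.0328, 24 genes in all). For MI on day 1, 0 members passed where 0.0162% of all genes did, 2 (*C3* and *C7*) had an unadjusted p under 0.05, as had 14.6% of all genes, DESeq2 called 1 among 328 genes and limma-voom 0, and 3 members (*C3*, *C7* and *Cfb*) were lower without overlap, as were 11.8% of all genes. Between the MI groups, *C3* and *C7* passed, 2 of 9 where 0.0325% of all genes passed and 0.0243% were called higher, and 6 members did not overlap, as for 8.90% of all genes. Of 7d-SHAM + 21 against 1d-SHAM + 21, 0 members passed where 0% of all genes did, with 2 members at an unadjusted p under 0.05 (*C1qb* and *C1qc*, both lower; 1.79% of all genes) and 0 by DESeq2 or limma-voom. *C1qc* was the 1 member lower there without overlap, as 1.60% of all genes were. The interaction passed for 0 members and 0% of all genes, with 6 members at an unadjusted p under 0.05 (3.76% of all genes), 3 by DESeq2 among 44 genes and 0 by limma-voom. Without replicate 1 of 7d-SHAM + 21 it passed for *C3* (adjusted p = 0.00901) and *C7* (adjusted p = 0.033).

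**Figure D4:**
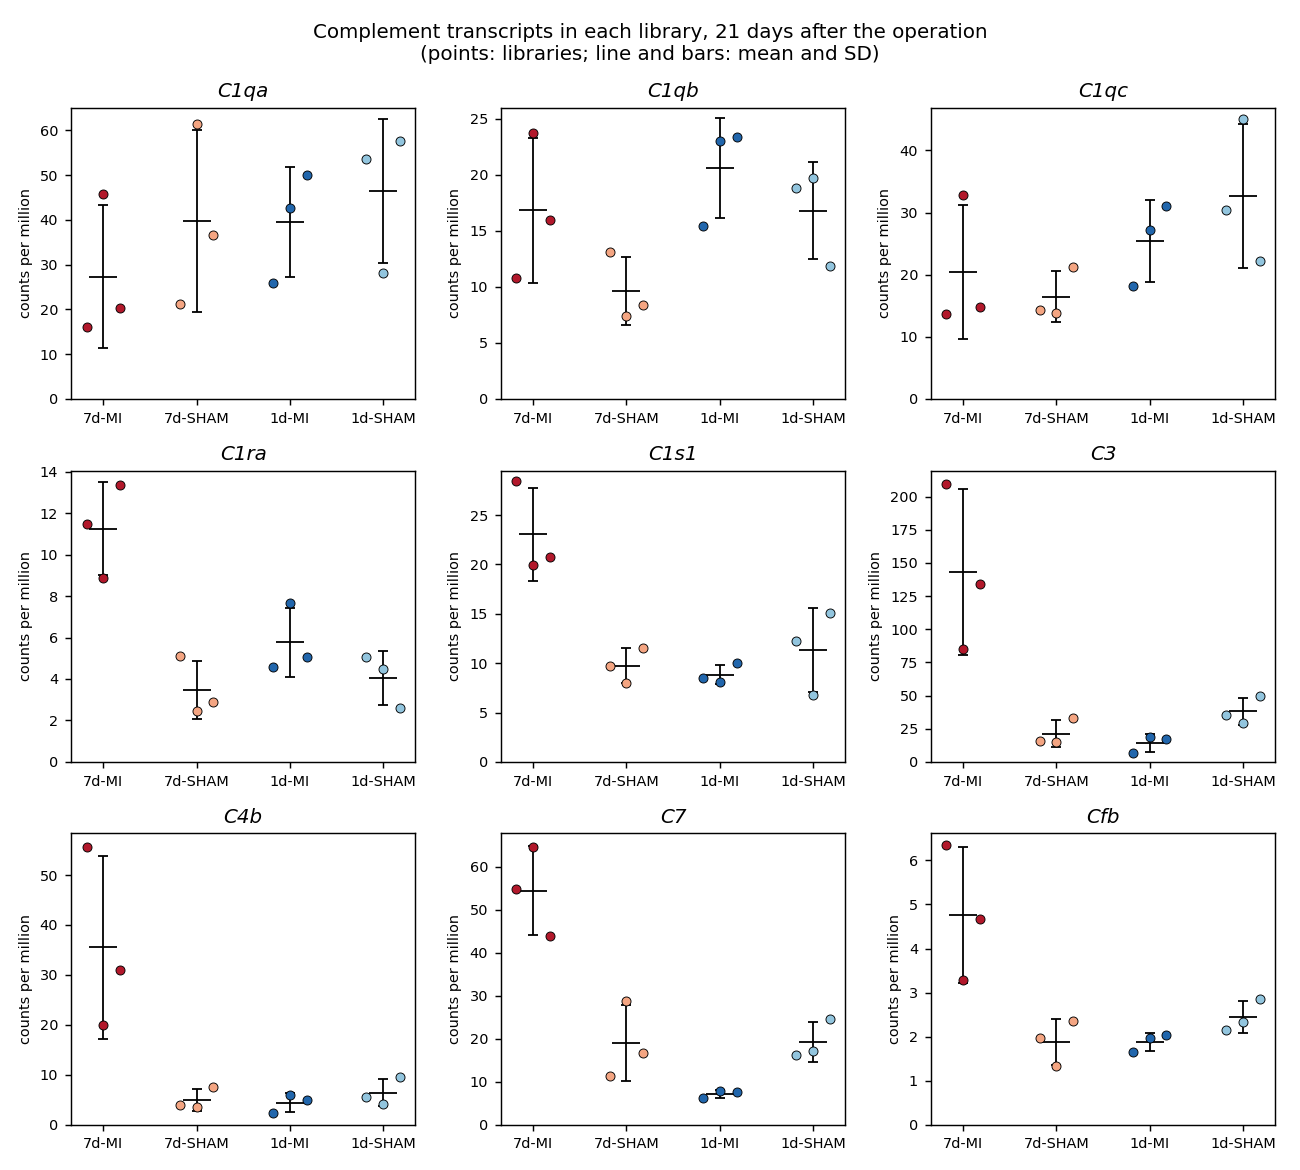
Each panel plots one complement transcript 21 days after the operation, in CPM on a linear axis, with points for the 3 libraries of each group and the mean with SD. For *C1ra*, *C1s1*, *C3*, *C4b*, *C7* and *Cfb* the 3 libraries of 7d-MI lie above every other library, and for the C1q chains the MI and SHAM groups of each age overlap.

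*C7* (ENSMUSG00000079105), of the terminal pathway, starts and ends at chr15:4988762-5063740 in the files of 3 days and has its end at 5063773 in those of 21 days. Its start region is shown because *C7* was one of the 2 members called at 21 days (GRCm38.p6, minus strand, chr15:5063724-5064023), with capitals for a GAS element (TTCNNNGAA, in 8.30% of promoters, both strands) and for TATAAA on the other strand, printed as TTTATA.
C7: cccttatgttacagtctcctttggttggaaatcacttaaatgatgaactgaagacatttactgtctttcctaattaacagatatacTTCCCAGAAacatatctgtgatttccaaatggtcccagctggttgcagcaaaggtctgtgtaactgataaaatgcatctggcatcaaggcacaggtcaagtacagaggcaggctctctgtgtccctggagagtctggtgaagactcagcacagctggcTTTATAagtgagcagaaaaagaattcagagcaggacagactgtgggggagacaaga
The matches began at -164 and at -6. A GAS match also lay in *C1ra*, at 33. *C7* was hardly detected at 3 days, with 0.408, 0.348, 1.06 and 0.759 CPM in 7d-MI + 3 hearts, 0.170, 0.495, 0.512 and 0.434 CPM in 7d-SHAM + 3 hearts, 0.440, 0.514, 0.298 and 0.477 CPM in 1d-MI + 3 and 0.318, 0.254, 0.221 and 0.0666 CPM in 1d-SHAM + 3. The groups overlapped in both MI comparisons, and no contrast passed (log2 fold change 0.66, SE 0.59, adjusted p = 0.425 for MI on day 7).

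At 21 days *C7* ranked behind *C3* and *C1qa* among the members per length in 7d-MI + 21, at 20.1 CPM per kilobase, against 27.8 and 26.3. It had 54.8, 64.7 and 43.9 CPM in 7d-MI + 21 and 11.4, 28.9 and 16.8 CPM in 7d-SHAM + 21. It had 6.18, 7.89 and 7.60 CPM in 1d-MI + 21 and 16.3, 17.1 and 24.7 CPM in 1d-SHAM + 21. The 3 libraries of 7d-MI + 21 were above and the 3 of 1d-MI + 21 below all other libraries. *C7* was 7.54-fold higher in 7d-MI + 21 than in 1d-MI + 21 (log2 fold change 2.91, SE 0.37, adjusted p = 0.0118) and *C3* was higher by 3.32 on the log2 scale (SE 0.49, adjusted p = 0.0258). Against their shams, *C7* differed by 1.52 (SE 0.35, adjusted p = 0.147) on day 7 and by -1.42 (SE 0.35, adjusted p = 0.283) on day 1, and the effects differed by 2.94 (SE 0.50, adjusted p = 0.172). Both calls were lost when any library of 1d-MI + 21 was left out, with adjusted p of 0.0708 to 0.13 for *C7* and 0.0873 to 0.131 for *C3*, and that of *C3* also without replicate 1 of 7d-MI + 21 (adjusted p = 0.106). Without the 3 libraries with the highest rRNA share, both had an adjusted p of 0.152.

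The 6 members that were highest in 7d-MI + 21 were set beside markers of stromal cells, mesothelial cells and macrophages. In 1d-MI + 21, *C3*, *C7* and *Cfb* were lower than in 1d-SHAM + 21 without passing the test. The fibroblast sum averaged 2315 CPM there, against 1687, with overlap, and the macrophage sum averaged 290 and 289 CPM in these 2 groups. Mesothelial and adipocyte markers had median log2 fold changes of -1.15 and -1.91 for MI on day 1, with 2 of 7 and 1 of 6 above 0. For MI on day 7, 5 of 5 endothelial and 4 of 6 adipocyte markers had a log2 fold change above 0 (medians 0.63 and 1.30). The adipocyte sum went the other way, at 220 to 560 CPM in 7d-MI + 21 and 481 to 933 CPM in 7d-SHAM + 21, with overlap. The fibroblast sum was 3211 to 4933 CPM in 7d-MI + 21 hearts, 1024 to 1845 CPM in 7d-SHAM + 21 hearts, 1860 to 2648 CPM in 1d-MI + 21 and 1078 to 2348 CPM in 1d-SHAM + 21, and no marker of the list passed. The sum of 7 mesothelial and epicardial markers was 17.2 to 31.6 CPM in 7d-MI + 21 hearts, 7.16 to 10.5 CPM in 7d-SHAM + 21 hearts, 6.90 to 11.6 CPM in 1d-MI + 21 and 6.73 to 14.2 CPM in 1d-SHAM + 21. Of these, *Upk3b* had 12.5, 9.96 and 7.50 CPM in 7d-MI + 21 and 0.660, 1.29 and 2.80 CPM in 7d-SHAM + 21. The 12 macrophage markers summed to 346 to 384 CPM in 7d-MI + 21 and 193 to 239 CPM in 7d-SHAM + 21, and to 254 to 314 CPM in 1d-MI + 21 and 215 to 372 CPM in 1d-SHAM + 21. None of the 12 passed against SHAM, and 11 had a log2 fold change above 0 for MI on day 7. Hepatocyte markers summed to at most 5.78 CPM in any library of 21 days, with *Alb* at 0 to 0.0647 CPM in 7d-MI + 21. Per length and relative to *Pdgfra*, *C3* was 1.68 to 2.61 in 7d-MI + 21 and 0.580 to 1.29 in 7d-SHAM + 21, without overlap, and *C7* was 1.29 to 2.42 in 7d-MI + 21 and 1.10 to 2.11 in 7d-SHAM + 21, with overlap. In 1d-MI + 21, *C3* was 0.325 to 0.892 and *C7* 0.489 to 0.722 of *Pdgfra*, against 1.16 to 1.53 and 1.11 to 1.68 in 1d-SHAM + 21, without overlap for either. The part of cell makeup in these levels was not tested.

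**Figure D5:**
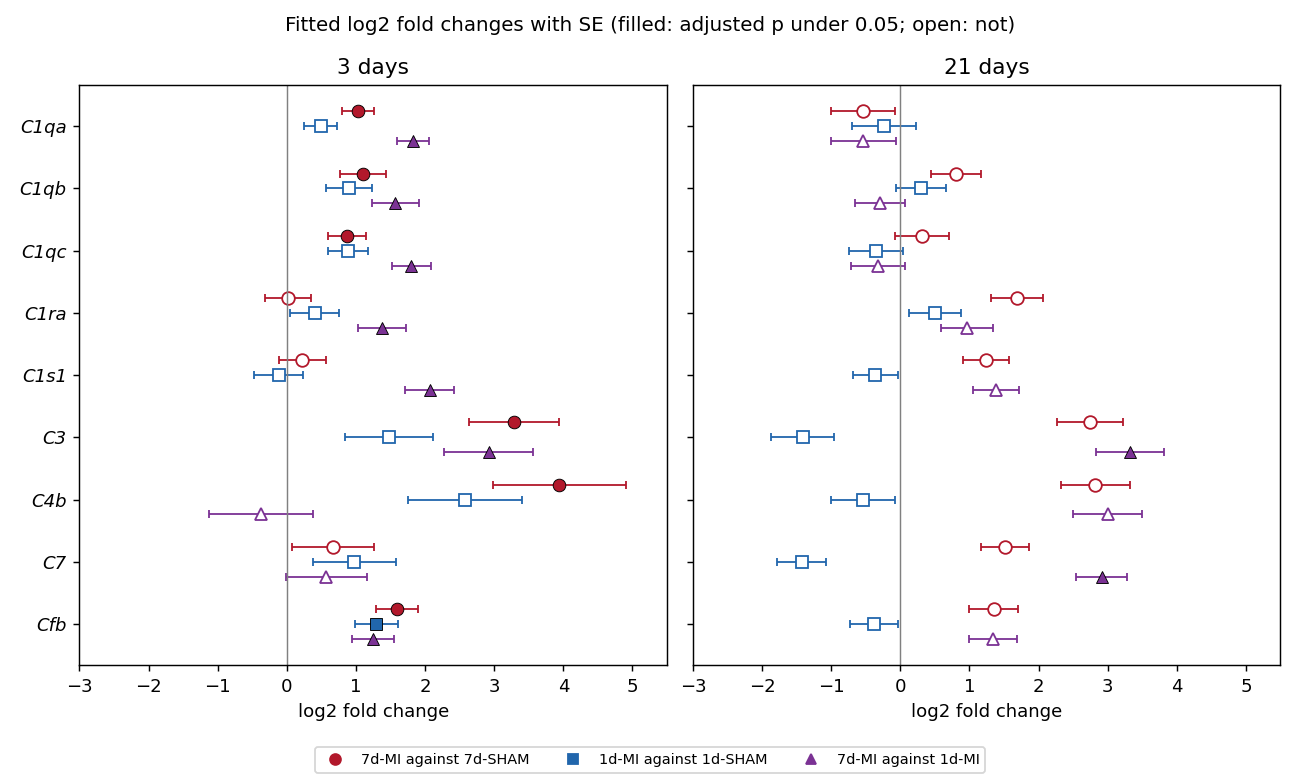
Fitted log2 fold changes (horizontal axis) with SE bars are drawn for each member at 3 days (left) and 21 days (right), with circles for 7d-MI against 7d-SHAM, squares for 1d-MI against 1d-SHAM and triangles for 7d-MI against 1d-MI, filled where the adjusted p was under 0.05. At 3 days 6 circles, 1 square and 7 triangles are filled, and at 21 days 2 triangles, those of *C3* (3.32) and *C7* (2.91).

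The levels of *C3*, *C4b* and *Cfb* ran close to each other over the 12 libraries of 21 days, with r of log2 CPM from 0.94 to 0.97 for the 3 pairs, and *C1s1* had r = 0.89 with *C3* and 0.93 with *C4b*. *C7* had r = 0.85 with *C3*. At 3 days r was 0.83 for *C3* with *Cfb* over the 16 libraries. These values include the group differences and are given as a description. The median log2 fold change of the 9 members was 1.04 for MI on day 7 and 0.90 for MI on day 1 at 3 days, beside medians of 0.08 and 0.06 over all genes. At 21 days it was 1.35 and -0.36, beside -0.13 and -0.11 over all genes.

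Genes outside complement whose levels were most like those of a member were found among 7835 genes by the mean of the 2 Pearson correlations over 16 and 12 libraries. For *C1qa* they were *Ssr2* (mean r 0.90), *Srgn* (0.83) and *Cfl1* (0.83). For *C4b* they were *Ltbp2* (0.86), *Gpnmb* (0.84) and *Col12a1* (0.84), and for *C3* they were *Fndc1*, *Anpep* and *Bgn* (0.89 each).

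Of 46 other complement genes in 5 lists, 38 were tested at 3 days. After MI on day 7, 13 were higher and 5 lower, and after MI on day 1, 8 were higher and 3 lower. Over all genes 19.8% were higher and 14.2% lower on day 7, and 4.1% higher and 4.36% lower on day 1. Of the receptors, 6 of 10 were higher on day 7 and none lower, and 5 were higher and 1 lower on day 1. *C3ar1*, the receptor for C3a, had 80.0, 74.2, 55.5 and 67.3 CPM in 7d-MI + 3 and 4.55, 3.40, 3.69 and 3.15 CPM in 7d-SHAM + 3, and 9.51, 12.2, 5.08 and 17.3 CPM in 1d-MI + 3 and 3.38, 2.28, 2.39 and 3.86 CPM in 1d-SHAM + 3. MI and SHAM were apart at both ages. *C3ar1* rose by 4.23 on the log2 scale (SE 0.30, adjusted p = 3.08e-08) after MI on day 7 and by 1.90 (adjusted p = 0.00136) after MI on day 1, and the difference of 2.33 passed (adjusted p = 0.000994). *C5ar1*, the receptor for C5a, rose by 3.72 and 1.68, with a difference of 2.03 (adjusted p = 0.0115). The integrin chains of complement receptor 3, *Itgam* and *Itgb2*, rose by 3.80 and 3.04 after MI on day 7 and by 1.54 and 2.40 after MI on day 1, and their difference passed for *Itgam* (2.26, adjusted p = 0.00714). These receptors are made by macrophages and neutrophils, whose markers moved in the same libraries as given above.

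Among 13 regulators tested, 3 were higher and 3 lower after MI on day 7, where 19.8% and 14.2% of all genes were. After MI on day 1, 3 were higher and 1 lower, where 4.1% and 4.36% of all genes were. *Clu*, the secreted inhibitor clusterin, had 439, 297, 230.4 and 301 CPM in 7d-MI + 3 and 21.5, 32.6, 34.6 and 33.3 CPM in 7d-SHAM + 3, and 64.4, 93.6, 65.7 and 109.65 CPM in 1d-MI + 3 and 13.3, 11.7, 20.9 and 19.9 CPM in 1d-SHAM + 3. The groups were far apart at both ages, by 3.37 (SE 0.25, adjusted p = 3.08e-08) and 2.34 (adjusted p = 4.07e-05) on the log2 scale, and the effects differed by 1.03 (adjusted p = 0.0417). *Cd59a*, which blocks the terminal complex that C7 joins, fell by 1.28 after MI on day 7 (adjusted p = 3.12e-06) and by 0.50 after MI on day 1. *Vtn*, vitronectin, another inhibitor of that complex, fell by 2.43 on day 7 (adjusted p = 1.63e-05). *Serping1*, the inhibitor of C1r and C1s, was at 0.61 (adjusted p = 0.0524) for MI on day 7 and higher by 1.93 (adjusted p = 7.75e-06) in 7d-MI + 3 than in 1d-MI + 3.

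Of the 10 recognition and initiating genes tested, 2 rose and 2 fell after MI on day 7, near the shares of all genes called higher (19.8%) and lower (14.2%). *Masp2*, the lectin pathway protease that cleaves C4, rose by 1.55 and *Colec12*, a scavenger receptor with a C-type lectin domain, by 0.75, and *Colec11*, a soluble collectin, fell by 1.04 (adjusted p = 0.000149) on day 7 and by 0.68 on day 1. *Masp1* was higher by 1.08 (adjusted p = 0.00519) in 7d-MI + 3 than in 1d-MI + 3. In the convertase list 2 of 4 rose after MI on day 7, among them *Cfp*, properdin, which stabilises the convertase of factor B, by 2.78 (adjusted p = 0.000239). Of the terminal list 1 gene was tested, and it did not pass for MI at either age. At 21 days none of 42 other complement genes passed in edgeR's test in any of the 5 comparisons, with 14 at an unadjusted p under 0.05 for MI on day 7, where 16.7% of all genes were, and 6 for MI on day 1, where 14.6% were. The values nearest to the threshold for MI on day 7 were those of *Serping1* and *Clu*, both at adjusted p = 0.0792. *Serping1* had 87.0, 75.02 and 107 CPM in 7d-MI + 21 hearts, 35.4, 28.4 and 24.1 CPM in 7d-SHAM + 21 hearts, 36.2, 45.7 and 36.9 CPM in 1d-MI + 21 and 30.4, 38.5 and 32.0 CPM in 1d-SHAM + 21, again with 7d-MI + 21 above all other libraries. The paper lists *Cfd*, adipsin, among the genes most overexpressed in 7d-MI + 21 against 1d-MI + 21. Here *Cfd* had 3.86 to 6.38 CPM in 7d-MI + 21 and 0 to 1.07 CPM in 7d-SHAM + 21. It had 0 to 0.480 CPM in 1d-MI + 21 and 0.0907 to 1.98 CPM in 1d-SHAM + 21.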

How the data were processed

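Left ventricular RNA of 28 mice was sequenced with the TruSeq stranded total RNA kit on a NextSeq 550 (3 days, 75 cycles per end) or the ScriptSeq v2 kit on a HiSeq 2000 (21 days, 100 cycles per end). The submitters' processing notes name TopHat2 2.0.11, Bowtie2 2.2.2, Cufflinks 2.2.1 and the build GRCm38. How reads were assigned to genes (program, strand, annotation version) was not given in the sources used here. The authors deposited 1 table per library with raw read counts per gene, from which all values here were computed, beside CPM and RPKM columns and their log2 values, which the authors made from the counts and which were not used in tests. The 30 files covered 28 libraries, since 2 libraries came as 2 lanes, which were summed. No 2 libraries of a group agreed within sampling noise (36 pairs, chi-square per degree of freedom 13.4 or more).

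Counts were scaled by TMM within a follow-up, filtered (filterByExpr, minimum count 10, total 15) and tested with edgeR 4.0.16's quasi-likelihood test in R 4.3.3, with the 4 groups of a follow-up in 1 fit, 5 comparisons and Benjamini-Hochberg adjustment over all 20345 or 24646 genes tested. The threshold was an adjusted p under 0.05. CPM uses the TMM-scaled library size. Replicates varied more at 21 days, with a common biological coefficient of variation of 0.567, against 0.331 at 3 days, so that smaller changes could pass at 3 days. DESeq2 1.42.0 and limma 3.58.1 were alternatives, beside other scalings, filters, blocks and left-out libraries. The scripts were tested on simulated counts. The floors given above cover counting error only. The SE printed with an edgeR value is the absolute log2 fold change divided by the square root of the F statistic. It therefore includes the spread between replicates.

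The members, the lists of complement genes and markers and the tests were chosen with earlier results of these data known. Of the other complement genes, at most 4 per list were named, by smallest p among those past the threshold and with a mean of at least 1 CPM at a follow-up. *C4a* was named as the copy of *C4b*, and *Cfd* because the paper names it. *Upk3b* was named after its values were seen. Promoters are from a RefSeq table (GRCm38.p6), in which 6 members had 7 promoters. Motif positions count the start site as 1, with no 0, and refer to the first printed base of a match. No column belonged to another series.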

Additional observations from a re-analysis of the deposited data

Results flagged for a closer look

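In 5 members, the fitted MI values had opposite signs at the 2 operation ages 21 days after the operation, with every 7d-MI + 21 library above the 7d-SHAM + 21 mean of log2(CPM + 0.1) and every 1d-MI + 21 library below that of 1d-SHAM + 21. The share of all genes meeting this rule was not counted. On day 1 the values of *C4b* (-0.54, SE 0.47), *Cfb* (-0.38, SE 0.35) and *C1s1* (-0.36, SE 0.33) were close to their SE. *C4b* and *C1s1* overlapped with 1d-SHAM + 21, so no day 1 direction can be given for these 3. The MI effect on day 7 minus the MI effect on day 1, on the log2 scale, was 4.16 for *C3*, 3.36 for *C4b*, 2.94 for *C7*, 1.73 for *Cfb* and 1.60 for *C1s1*. The difference itself was tested as an interaction in edgeR, and 0 of these 5 genes passed (adjusted p = 0.101 for *C3*, 0.172 for *C7*, 0.415 for *C4b*, 0.937 for *Cfb* and 0.98 for *C1s1*). Of 36 tests for a library far from the rest of its group, made over the 9 members and the 4 groups of 3 days, 0 found one, where chance gives about 5%.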

How the results depend on the processing

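The calls at 3 days for MI on day 7 and between the MI groups kept their number of members (6 and 7) to within 1.5 times under every alternative run, and those at 21 days rest on few libraries. For MI on day 1 at 3 days, 1 member passed, and 2 with upper-quartile scaling, 5 with no filter, 2 with a stricter filter (mean count 50), 4 with DESeq2, 0 when limma-voom took name prefixes as a random effect, 2 against replicates 1 and 2 and 2 against replicates 3 and 4 of 1d-SHAM + 3, 0 with libraries 3 and 4 of 1d-MI + 3 alone and 0 with the 2 groups fitted alone. Over all genes 1722 were called for MI on day 1 in the main test, 1413 with upper-quartile scaling, 2981 with no filter and 1466 with the stricter filter. DESeq2 called 2789, the prefix effect gave 258, and the 2 groups alone 161. Replicates 1 and 2 of 1d-SHAM + 3 gave 428, replicates 3 and 4 gave 5599, and libraries 3 and 4 of 1d-MI + 3 gave 255. The interaction at 3 days gave 1 with no filter (2985 genes in all, against 2662 in the main test). At 21 days MI on day 7 gave 4 with no filter, 6 with DESeq2 and 2 with limma-voom, among 383, 1028 and 14 genes in all. MI on day 1 gave 1 with DESeq2 and 1 with the 2 groups alone, among 328 and 600 genes in all. For 7d-MI + 21 against 1d-MI + 21, where 2 passed, upper-quartile scaling gave 1 (*C3* at adjusted p = 0.063), DESeq2 5, leaving out the 3 libraries with the highest rRNA share 0, and subtracting the olfactory receptor level 1 (*C3* at adjusted p = 0.0626). Over all genes 8 were called there in the main test, and 4, 208, 2 and 3 under these settings. The interaction at 21 days gave 3 with no filter and 3 with DESeq2, among 17 and 44 genes in all. The subtraction, the removal of rRNA loci, the libraries left out for rRNA and the 2 libraries of 1d-MI + 3 were chosen after seeing the data. The cause was not tested in any case.

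Whether replicate numbers at 21 days pair the samples is not known, and the main test did not pair them. Same-numbered libraries deviated together with r from -0.19 to 0.54 (15 pairs, median 0.05). Libraries of different number had r from -0.58 to 0.42 (39 pairs, median -0.04). With so few libraries per group these values cannot decide it. With the replicate block, 2 members passed for MI on day 7 at 21 days, *C3* (2.82) and *C4b* (2.85), both at adjusted p = 0.0422. The genes called in all were then 46, against 0 without the block. The block reversed the uncalled *C1qa* for MI on day 1 (0.35) and *C1qa* (0.23), *C4b* (0.0046) and *C7* (0.24) between the sham groups.

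Leaving out 1 library at a time gave 4 to 6 members for MI on day 7, 0 to 3 for MI on day 1, 7 to 7 between the MI groups, 5 to 6 between the sham groups and 0 to 0 for the interaction at 3 days, and 0 to 7, 0 to 0, 0 to 3, 0 to 0 and 0 to 2 at 21 days. Over all genes, in the same order, these fits called 5656 to 6326, 627 to 3319, 7273 to 9633, 2339 to 5137 and 1826 to 2810 at 3 days. At 21 days they called 0 to 5903, 0 to 7, 0 to 21, 0 to 0 and 0 to 7. Signs turned with a library left out only for members that did not pass. At 3 days these were *C1s1* for MI on day 1 (-0.40 to 0.14), *C1ra* for MI on day 7 (-0.0512 to 0.16), *C4b* between the MI groups (-0.71 to 0.0579), and in the interaction *C1qb* (-0.0045 to 0.66) and *C1qc* (-0.26 to 0.33). At 21 days they were *C1qa* (-0.43 to 0.0085) and *C1qc* (-0.55 to 0.0084) for MI on day 1, *C1qc* for MI on day 7 (-0.17 to 0.58), *C1qa* in the interaction (-0.87 to 0.16), and between the shams *C1qa* (-0.69 to 0.0670), *C1s1* (-0.50 to 0.0299), *C4b* (-0.80 to 0.0293) and *C7* (-0.46 to 0.23).

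Other settings reversed 29 more uncalled values. Upper-quartile scaling moved the median of all genes at 3 days to -0.37 from -0.13 between the MI groups, to 0.21 from 0.06 for MI on day 1 and to -0.21 from 0.03 for the interaction, and at 21 days to -0.47 from -0.13 for MI on day 7 and to -0.43 from -0.11 for MI on day 1. It turned *C1ra* for MI on day 7 (-0.0778), *C1s1* for MI on day 1 (0.0819) and *C1qb* in the interaction (-0.0184) at 3 days, and *C1qc* for MI on day 7 (-0.0395), *C1qb* for MI on day 1 (-0.0061) and *C7* between the shams (0.0436) at 21 days. *C1ra* for MI on day 7 at 3 days was also -0.0303 with DESeq2's size factors, -0.0310 without the 20 most abundant genes in the scaling, -0.0316 with the stricter filter, -0.0305 with DESeq2, -0.0452 with the 2 groups alone and -0.0103 with the olfactory level subtracted. The stricter filter turned *C1s1* for MI on day 1 (0.0067) and *C7* between the shams of 21 days (0.0080), no filter turned *C1qc* in the interaction at 3 days (0.0722), and the olfactory subtraction turned *C1qc* for MI on day 7 (-0.0168) and *C7* between the shams (0.0860) at 21 days. *C4b* between the MI groups at 3 days was 0.13 with limma-voom, 0.0457 with the prefix effect and 0.94 with libraries 3 and 4 of 1d-MI + 3, which also turned *C1ra* for MI on day 1 (-0.21), and *C1qb* (-0.16) and *C1ra* (0.21) in the interaction. With replicates 1 and 2 of 1d-SHAM + 3 alone the interaction turned for *C1qb* (-0.18) and *C7* (0.10), and with replicates 3 and 4 alone for *C1qc* (0.35) and *C4b* (-0.58), as did *C4b* between the shams (0.24). Without the libraries with the highest rRNA share, *C1qa* in the interaction at 21 days was 0.0244. Counts under 150 limit *C4b*, *C4a* and *C7* at 3 days.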
